A study of Mus musculus with 12 samples.

Results

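The aryl hydrocarbon receptor pathway was followed through 7 genes in the livers of mice gavaged with esculetin and in RAW264.7 cells, a mouse macrophage line, given esculetin with oxidized low-density lipoprotein (oxLDL). The members were fixed by name, as the rows of both count tables whose Ensembl identifier belonged to Ahr, Arnt, Ahrr, Tiparp, Cyp1a1, Cyp1a2 or Cyp1b1, and all 7 were found among the 55357 identifiers of each table. Esculetin is a plant coumarin, and the comparison asks whether genes that respond to this receptor moved when it was given. RNA was sequenced in 12 libraries, 3 in each of 4 groups, and esculetin was compared with its control only within a table.

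All animals and cells were wild type (WT). The liver groups were C57BL6/J males aged 8 to 9 weeks that received either 90 mg/kg/d of esculetin or 2.5% Tween-80 alone by gavage for 7 days. Both liver groups ate a diet with 10% of energy from fat for 4 days and then a high-fat diet with 60% for 3 days, so no liver group was without high-fat feeding. Per the study, each liver sample pooled a pair of mice. The cell groups both carried 25 µg/mL of DIL-oxLDL, oxidized lipoprotein bearing a fluorescent dye, for 24 h, with esculetin at 40 µg/mL or with DMSO, so no cell group was without oxLDL. The sources do not say that the cell replicates were separate cultures, so p-values in the cells measure the spread between these samples, which may be technical. Doses, times and routes differed between the liver and the cells.

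The receptor, encoded by Ahr, waits in the cytoplasm with heat shock protein 90. When a planar aromatic ligand binds, it moves to the nucleus, pairs with ARNT and binds DNA at sites built around the letters GCGTG. Its classical targets are the CYP1 monooxygenases, which oxidize polycyclic aromatic compounds, drugs and hormones. Ahrr and Tiparp are targets that feed back on it, since the AHRR protein competes with AHR for ARNT and TIPARP is an ADP-ribosyltransferase that modifies AHR. In liver, Cyp1a2 is made constitutively by hepatocytes around the central vein, while Cyp1a1 is low until a ligand arrives. In bulk RNA, fewer cells of a type and less RNA per cell cannot be told apart.

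The letters GCGTG, searched on both strands, were counted in the promoters of the members, and sequences of some of the members are shown here. The promoters come from RefSeq (GRCm38.p6) and run from 250 bases before to 50 bases after the start of each gene. RefSeq promoters were found for 6 of the 7 members, and 5 of the 6 held the letters, against 32.4% of 32851 RefSeq promoters of the same length. The Cyp1a1 stretch, read from GRCm39, is instead a window of 300 bases upstream of that gene, picked for its number of matches. Several windows held as many, and the one with the farthest matches is shown. It lies 1444 to 1145 bases before the RefSeq start. The RefSeq promoters of Cyp1a1 and Cyp1b1, not shown, held 1 match each, so the picked window cannot be set against the promoters of the other members. Capitals mark each match, as GCGTG or as CACGC where it lies on the other strand.
Cyp1a1, upstream window with 5 matches (GRCm39 chr9:57603452-57603751, plus strand): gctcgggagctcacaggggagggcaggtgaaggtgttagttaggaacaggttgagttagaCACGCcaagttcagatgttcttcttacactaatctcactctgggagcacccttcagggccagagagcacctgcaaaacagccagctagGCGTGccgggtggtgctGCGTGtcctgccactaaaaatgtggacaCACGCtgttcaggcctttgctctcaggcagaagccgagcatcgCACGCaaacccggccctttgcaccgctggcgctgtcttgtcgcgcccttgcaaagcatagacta
Cyp1a2, promoter with 0 matches (GRCm38.p6 chr9:57683606-57683905, minus strand): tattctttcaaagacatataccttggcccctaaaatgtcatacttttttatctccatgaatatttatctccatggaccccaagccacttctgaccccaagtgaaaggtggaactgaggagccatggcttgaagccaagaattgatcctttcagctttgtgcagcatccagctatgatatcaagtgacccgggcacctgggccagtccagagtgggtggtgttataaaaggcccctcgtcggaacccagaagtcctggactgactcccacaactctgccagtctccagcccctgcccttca
Tiparp, promoter with 1 match (GRCm38.p6 chr3:65528197-65528496, plus strand): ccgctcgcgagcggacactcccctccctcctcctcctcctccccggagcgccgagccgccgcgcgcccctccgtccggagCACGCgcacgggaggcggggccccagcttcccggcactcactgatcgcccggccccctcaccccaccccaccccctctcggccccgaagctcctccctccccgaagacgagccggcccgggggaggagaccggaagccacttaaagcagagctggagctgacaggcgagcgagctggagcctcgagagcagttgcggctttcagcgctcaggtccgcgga
Ahrr, promoter with 3 matches (GRCm38.p6 chr13:74292282-74292581, minus strand): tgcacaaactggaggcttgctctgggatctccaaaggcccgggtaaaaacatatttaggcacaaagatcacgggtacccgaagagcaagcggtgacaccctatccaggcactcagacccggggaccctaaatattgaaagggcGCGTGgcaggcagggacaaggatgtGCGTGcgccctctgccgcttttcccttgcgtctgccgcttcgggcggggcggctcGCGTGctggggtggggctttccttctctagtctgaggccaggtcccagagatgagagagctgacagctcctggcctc
Arnt, promoter with 1 match (GRCm38.p6 chr3:95434140-95434439, plus strand): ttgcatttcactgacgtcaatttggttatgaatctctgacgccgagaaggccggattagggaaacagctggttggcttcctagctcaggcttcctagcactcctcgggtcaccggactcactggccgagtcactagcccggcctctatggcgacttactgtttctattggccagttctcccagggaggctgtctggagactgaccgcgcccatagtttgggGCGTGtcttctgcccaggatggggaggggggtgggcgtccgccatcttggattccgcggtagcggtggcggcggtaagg

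The members differed widely in how often the letters stood further upstream. In the 2000 bases before the start of the canonical transcript (GRCm39), Cyp1b1 held 12 matches and Cyp1a1 held 10, and only 0.106% and 0.29% of 21751 protein-coding genes held as many or more. Tiparp and Ahrr held 6 each, a number reached by 2.96% of genes. Cyp1a2 held 2, a number reached by 41.4% of genes, and Arnt and Ahr held 0. The letters were present in this stretch of 68.7% of all genes, with a median of 1 match. A match is a description of the sequence, not a bound site, and these counts say nothing of whether the receptor was there.

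**Figure D1:**
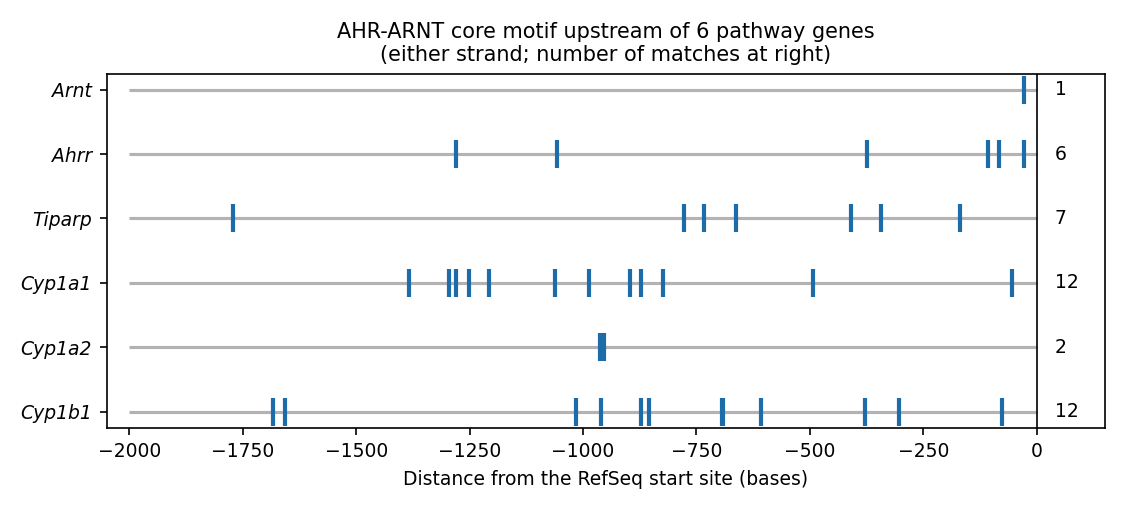
Positions of the letters GCGTG on either strand (blue ticks) in the 2000 bases before the RefSeq start site of 6 members, with distance from the start in bases on the x axis and the number of matches at the right. Cyp1a1 and Cyp1b1 carry 12 matches each, Tiparp 7, Ahrr 6, Cyp1a2 2 and Arnt 1. The RefSeq and canonical starts lie at different bases in all 6. The counts of Cyp1a1, Tiparp and Arnt therefore differ from those in the text, while those of the others are the same.

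The libraries held 14659876 to 20346460 counts in the liver and 13752842 to 20001959 in the cells. A count of 3, taken as the floor of what a library can show, was worth 0.148 to 0.195 CPM (counts scaled to library size) in the liver and 0.146 to 0.220 CPM in the cells, and such floors cover counting error only. Liver control replicate 1 had the largest TMM scaling factor of the liver libraries, 1.11 against 0.963 to 0.997 in the other 5, and the members' liver values, with those of the other genes that it moves most, are also given without it. All 8 hepatocyte marker genes were tested in the liver, with sums of 107604 to 135303 CPM per library. All 10 macrophage markers were tested in the cells, where 5 of the 8 hepatocyte markers were at 0 in every library.

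The level of each member, corrected for gene length, showed that the liver and the cells expressed different parts of the pathway. Levels are in TPM, counts per base of exon scaled to the same total in every library, over groups of 3 libraries. The length of a gene was that of all its annotated exons merged, so the order of genes depends on it. In control liver, Cyp1a2 stood at 762 ± 81.4 TPM (SD, n = 3), far above Arnt at 9.45 ± 1.84 and Ahr at 6.57 ± 2.77, whose ranges overlapped. Cyp1a1 at 0.920 ± 0.286 TPM and Tiparp at 0.873 ± 0.226 overlapped each other below them, and Cyp1b1 at 0.0926 ± 0.0564 and Ahrr at 0.0478 ± 0.0414 overlapped at the bottom. In esculetin liver the order was the same, with Cyp1a2 at 978 ± 21.2 TPM and Ahrr at 0.0275 ± 0.0242. There the ranges of Arnt and Ahr no longer met, while those of Cyp1a1 and Tiparp, and of Tiparp and Cyp1b1, overlapped.

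In control cells the receptor itself was at 0 counts in all 3 libraries, and so was Cyp1a2. Arnt, the partner that other transcription factors of its family also use, led with 63.3 ± 2.06 TPM and overlapped Tiparp at 53.6 ± 11.6. Ahrr, the repressor, followed at 0.791 ± 0.0830 TPM, and Cyp1a1 at 0.165 ± 0.0595. With esculetin the leading pair changed places in TPM, Tiparp at 98.9 ± 10.7 TPM and Arnt at 53.3 ± 3.28, and their ranges did not overlap. Without correction for length, Tiparp at 147 ± 30.5 CPM already stood beside Arnt at 142 ± 3.71 CPM in control cells. Ahrr was at 0.507 ± 0.184 TPM there and overlapped Cyp1a1 at 0.217 ± 0.214.

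**Figure D2:**
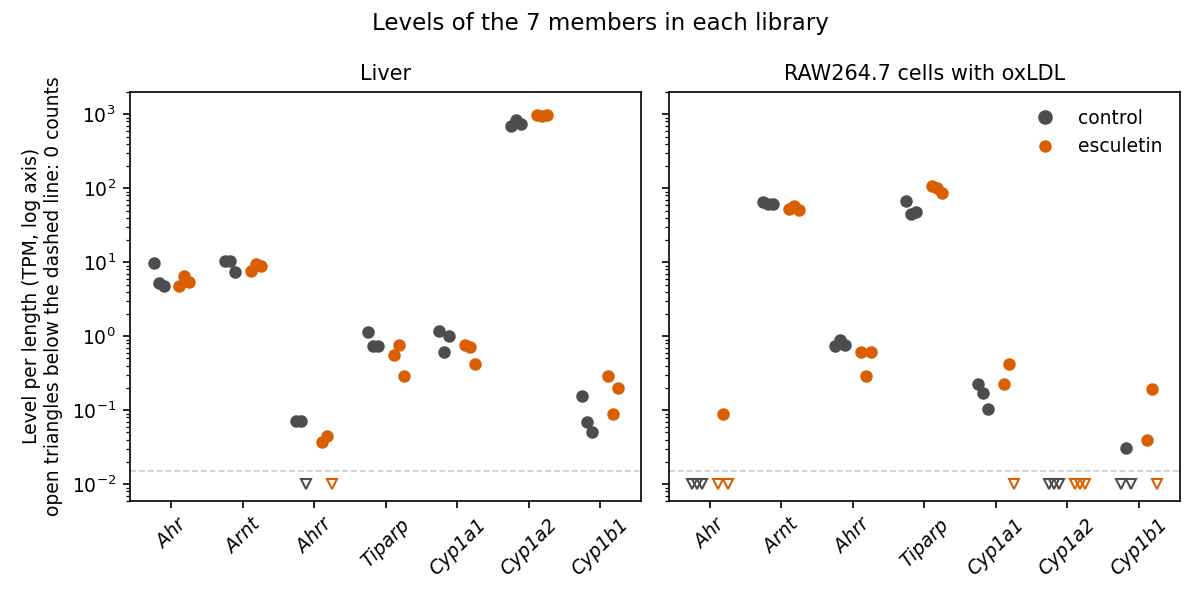
Level of the 7 members in each of the 12 libraries, in TPM on a log axis, with grey points for control, orange points for esculetin, and open triangles for libraries with 0 counts. Cyp1a2 stands alone near the top in liver and is at 0 in every cell library, while Arnt and Tiparp lead in the cells and Ahr has counts in 1 of 6 cell libraries.

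In the liver, none of the members passed the test, which was edgeR's quasi-likelihood test with Benjamini-Hochberg adjustment over 12813 genes and a call at 0.05. 5 of the 7 members had enough counts to be tested, and 0 were called, where 0.0859% of all tested genes were, 0.0312% higher and 0.0546% lower. 1 member, Cyp1a2, had an unadjusted p-value under 0.05, a level that 8.37% of all tested genes reached. DESeq2, limma-voom and each of the other alternative fits also called 0 members in the liver.

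Ahr, the receptor (ENSMUSG00000019256, chromosome 12, 35547973 to 35585057, minus strand), was measured at 16.3, 9.42 and 9.26 CPM in control liver and at 9.21, 12.2 and 10.6 CPM with esculetin. A single control library, replicate 1, was high, and the groups overlapped. The log2 fold change of esculetin over control was -0.13 (95% interval -0.62 to 0.36, edgeR adjusted p = 0.907), and without control replicate 1 it was 0.19 (edgeR adjusted p = 0.792). Arnt, its DNA-binding partner (ENSMUSG00000015522, chromosome 3, 95341365 to 95404551, plus strand), was at 26.7, 28.6 and 21.6 CPM in control and 22.1, 26.9 and 25.8 CPM in esculetin liver. These overlapped throughout, with a log2 fold change of -0.04 (-0.36 to 0.28, edgeR adjusted p = 0.957), and -0.01 without control replicate 1. The intervals leave room for modest changes of either gene in both directions.

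Cyp1a2, the constitutive hepatic CYP1 enzyme that clears caffeine and oxidizes aromatic amines (ENSMUSG00000032310, chromosome 9, 57584196 to 57590986, minus strand), was at 379, 506 and 482 CPM in control liver and at 627, 589 and 628 CPM with esculetin. Every esculetin library lay above every control library, and control replicate 1 was the lowest. No overlap between groups was also seen for 14.5% of all tested genes, 6.52% with esculetin higher and 7.95% with it lower. The fold change was 1.35 (1.10 to 1.65), or 0.43 on the log2 scale with an SE of 0.14, and it did not pass the test (unadjusted p = 0.00772, edgeR adjusted p = 0.391). The log2 fold change was between 0.32 and 0.51 in the 14 alternative fits of this gene, and its adjusted p-value lay between 0.102 and 0.994 in them. Without control replicate 1 the log2 fold change was 0.32 (edgeR adjusted p = 0.293).

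Because Cyp1a2 is made around the central vein, markers of liver zones were measured beside it. The summed level of 10 pericentral hepatocyte markers was 7783 to 11031 CPM in control and 10699 to 12379 CPM in esculetin liver. That of 10 periportal markers was 7434 to 8993 CPM in control and 9173 to 10474 CPM in esculetin liver. No marker of either list was called, and the median log2 fold change was 0.23 over the pericentral and 0.15 over the periportal list, against -0.02 over all genes. Both sums were higher with esculetin on average. Abundant markers weigh most in them, and the pericentral Cyp2e1 alone averaged 5580 CPM in control and 6846 CPM in esculetin liver. Log2 fold changes were below 0 for the pericentral Lgr5, Axin2 and Cyp2c29 and the periportal Hsd17b13, Cdh1 and Ctsc. The other markers of both lists were above 0. The part of the zones in the level of Cyp1a2 was not tested.

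Cyp1a1, the most inducible target of the receptor (ENSMUSG00000032315, chromosome 9, 57595211 to 57611107, plus strand), was low in every liver library, at 8 to 21 counts. It had 20, 14 and 21 counts in the control libraries, or 1.23, 0.691 and 1.22 CPM. With esculetin it had 17, 13 and 8 counts, or 0.926, 0.844 and 0.518 CPM. No esculetin library exceeded the highest control, the groups overlapped, and the log2 fold change was -0.43 (-1.34 to 0.48, edgeR adjusted p = 0.801), or -0.30 without control replicate 1. On the linear scale the interval ran from 0.394-fold to 1.39-fold. Cyp1a1 and Cyp1a2 share runs of transcript sequence of up to 137 bases, and how the authors' counting placed reads from these runs is not given in the sources used here.

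Tiparp, the ADP-ribosyltransferase that feeds back on the receptor (ENSMUSG00000034640, chromosome 3, 65435320 to 65463365, plus strand), was at 3.50, 2.47 and 2.68 CPM in control liver and at 1.96, 2.66 and 1.04 CPM with esculetin. The groups overlapped through esculetin replicate 2, and the log2 fold change was -0.60 (-1.35 to 0.14, edgeR adjusted p = 0.660). Without control replicate 1 it was -0.44, and without esculetin replicate 3, the lowest library, it was -0.33.

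Ahrr and Cyp1b1 had too few counts in the liver to be tested. Ahrr, the repressor (ENSMUSG00000021575, chromosome 13, 74359237 to 74440462, minus strand), had 3, 4 and 0 counts in control and 2, 2 and 0 in esculetin liver. Cyp1b1, the CYP1 enzyme of non-parenchymal and extrahepatic cells (ENSMUSG00000024087, chromosome 17, 80008966 to 80022532, minus strand), had 5, 3 and 2 counts in control and 12, 3 and 7 with esculetin. Ahrr lay near the 3 counts that set the floor. Cyp1b1 reached 12 and 7 counts in esculetin replicates 1 and 3, and its groups overlapped. Without a filter on low counts its log2 fold change was 1.19 (edgeR adjusted p = 0.782). No change of either gene was called at this depth.

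In the RAW264.7 cells a single member was called. 3 of the 7 members could be tested and Tiparp rose, while Arnt and Ahrr did not pass. Calls were made for 57.7% of all 13277 tested genes, 28.7% higher with esculetin and 29.0% lower, so 1 call among 3 members did not exceed the background of this table. An unadjusted p-value under 0.05 was reached by 2 of the 3 members and by 62.3% of all genes. The groups did not overlap for any of the 3 members, 1 higher and 2 lower, which was also true of 64.1% of all tested genes, 31.0% higher and 33.1% lower.

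Tiparp was measured at 182, 127 and 132 CPM in control cells and at 309, 286 and 249 CPM in esculetin cells. Every esculetin library was above every control library, and control replicate 1 was the highest of its group. The fold change was 1.91 (1.56 to 2.35), or 0.94 on the log2 scale with an SE of 0.14 (edgeR adjusted p = 0.000138). It was called in all 14 alternative fits, at log2 fold changes from 0.85 to 1.12. Any part of the receptor in this rise was not tested, and its counts in these cells follow.

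The receptor had 0 counts in control cells and 0, 2 and 0 counts in esculetin cells. A count of 0 allows up to 0.146 to 0.220 CPM in these libraries, and Ahr was therefore at or below the floor in all 6. Arnt was present at 146, 142 and 139 CPM in control and at 122, 131 and 119 CPM in esculetin cells. All esculetin libraries lay below all control libraries. The log2 fold change of -0.20 (-0.37 to -0.02) missed the threshold (edgeR adjusted p = 0.0506), and it passed when counts were scaled by library size only (-0.26, edgeR adjusted p = 0.0136). A gene model inside Arnt on the same strand, Gm42672, had 12 to 35 counts in the cell libraries, small beside the counts of Arnt.

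Ahrr had 32, 38 and 35 counts in control cells, or 1.66, 2.04 and 1.70 CPM. It had 20, 10 and 26 counts with esculetin, or 1.46, 0.682 and 1.45 CPM. The esculetin libraries were all lower, but the log2 fold change of -0.58 had an interval from -1.35 to 0.20 (edgeR adjusted p = 0.181) and did not pass in any alternative.

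The CYP1 enzymes were at the floor in the macrophage line. Cyp1a1 had 4, 3 and 2 counts in control and 3, 6 and 0 counts in esculetin cells. Cyp1b1 had 0, 1 and 0 counts in control and 1, 5 and 0 with esculetin. Cyp1a2 had 0 counts in all 6 libraries. The groups of Cyp1a1 and Cyp1b1 overlapped, and esculetin replicate 2 held the highest count of each, as it did for Ahr. No fold change is given for these genes.

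**Figure D3:**
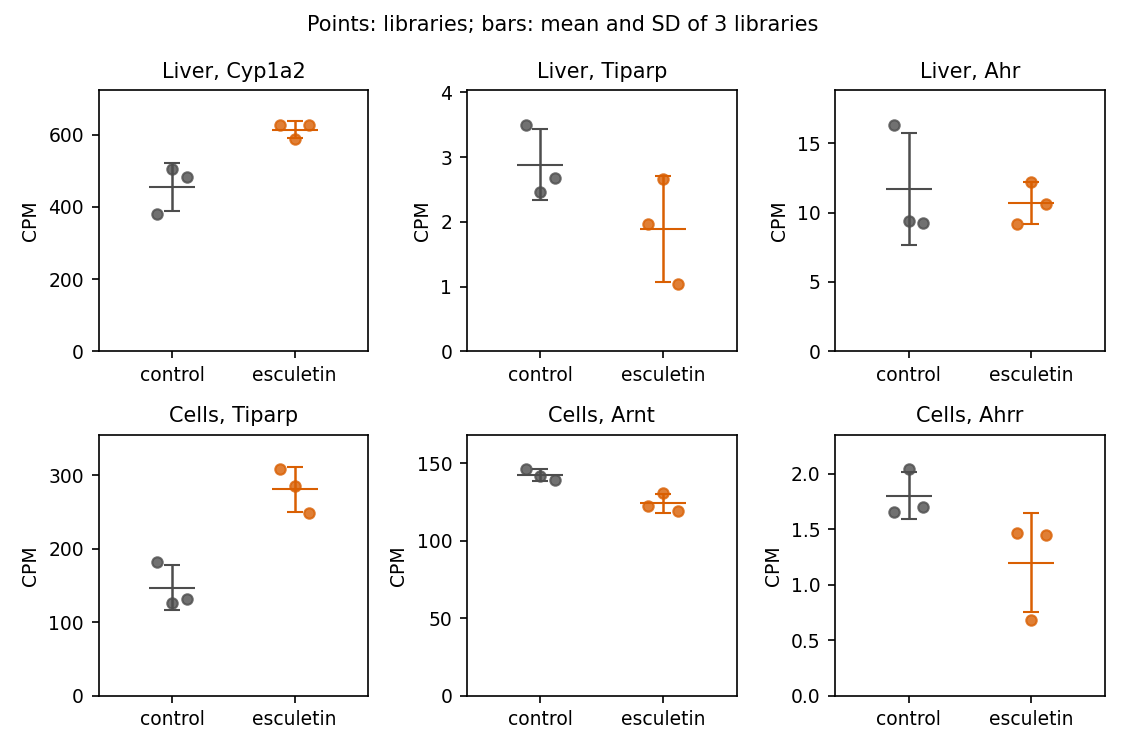
CPM of 3 members in liver (top) and 3 in cells (bottom), with 1 point per library, grey for control and orange for esculetin, and bars for the mean and SD of 3 libraries; each y axis starts at 0. The groups are apart for Cyp1a2 in liver and for Tiparp, Arnt and Ahrr in cells, and overlap for Tiparp and Ahr in liver, but only Tiparp in cells passed the test.

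The effect on Tiparp differed between the cells and the liver. In a model of all 12 libraries, the log2 fold change in the cells exceeded that in the liver by 1.5 (SE 0.33, 95% interval 0.80 to 2.2, edgeR adjusted p = 0.00312). A difference was called for 27.1% of the 15709 genes tested in the same model, 13.4% above 0 and 13.7% below. It was called in all 17 alternative fits, at values from 1.26 to 1.85, and was 1.40 without liver control replicate 1. For Arnt the difference was -0.20 (-0.54 to 0.15, edgeR adjusted p = 0.413). The other members were at or near the floor in at least 1 of the tables, where a difference cannot be read. Dose, route, time and diet differed with the cell source and cannot be told apart.

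**Figure D4:**
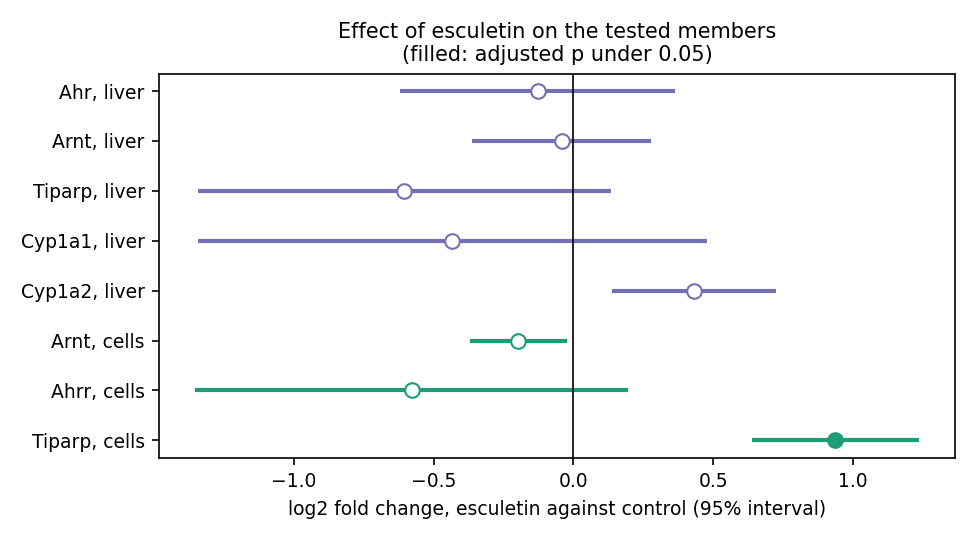
Log2 fold change of esculetin over control with its 95% interval for each member that could be tested, purple for liver and green for cells; a filled point passed an adjusted p-value of 0.05. Tiparp in cells, at 0.94, is the only filled point, and the intervals of Cyp1a2 in liver (0.14 to 0.73) and Arnt in cells (-0.37 to -0.02) lie to one side of 0 without passing.

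A wider list of 27 genes described as targets of the receptor, the target battery, was read in the same fits. It holds enzymes of drug conjugation and oxidation besides secreted and signalling proteins, many of which answer to other regulators as well. In the liver 21 of the 27 could be tested and 0 were called, beside 0.0859% of all tested genes. An unadjusted p-value under 0.05 was reached by 6 of the 21, 1 higher and 5 lower, and by 8.37% of all tested genes. The median log2 fold change of the list was -0.03, beside -0.02 over all tested genes. DESeq2 called 2 of these genes, the fit without a filter on low counts called 5 and the fit with a replicate block called 4. Over all liver genes DESeq2 called 98 of 12813, the fit without a filter called 339 of 22343 and the replicate block called 123. The fit reported called 11 of 12813. Log2 fold changes of the battery genes without a filter were nearly those of the fit reported, so its smaller adjusted p-values do not stand for larger effects.

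Of the 21 tested battery genes of the liver, 9 had log2 fold changes above 0 and 12 below, and no conjugating or oxidizing enzyme among them was called in the fit reported. Nqo1, a quinone reductase, was at 7.80, 7.65 and 6.0 CPM in control and 7.14, 7.47 and 6.60 CPM in esculetin liver. These values overlapped, with a log2 fold change of -0.02 (-0.42 to 0.38, edgeR adjusted p = 0.988) whose sign changed in 3 of the 6 fits that left out a replicate. Ugt1a6a, a glucuronosyltransferase, was at 3.56, 1.33 and 1.05 CPM in control and 0.654, 0.519 and 0.324 CPM with esculetin. Its groups did not overlap, its log2 fold change was -1.95 and it did not pass (edgeR adjusted p = 0.305). It was called without a filter on low counts (edgeR adjusted p = 0.00127) and with a replicate block. Control replicate 1 was the highest library, and without it the log2 fold change was -1.23 (edgeR adjusted p = 0.445). Ugt1a6a shares exons with the neighbouring Ugt1a genes, so its counts are uncertain. Gsta1, a glutathione transferase, was at -1.40 (edgeR adjusted p = 0.319), at -1.97 without esculetin replicate 1 and at -1.26 without control replicate 1. It was called without a filter (edgeR adjusted p = 0.0127). Aldh3a1, an aldehyde dehydrogenase, had at most 4 counts in any liver library.

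Among the other battery genes of the liver, Nfe2l2, which encodes the antioxidant transcription factor NRF2, went from 60.2 ± 15.6 to 35.3 ± 1.17 CPM (n = 3 each). Its log2 fold change was -0.77 (-1.14 to -0.40, edgeR adjusted p = 0.165). Nfe2l2 was called by DESeq2 (DESeq2 adjusted p = 0.00811), without a filter (edgeR adjusted p = 1.41e-05), with a replicate block and without control replicate 3 (-0.96, edgeR adjusted p = 0.0341). Without control replicate 1, its highest library, it was at -0.56 (edgeR adjusted p = 0.167). Fgf21, a hepatic hormone of fasting and stress, was at 3.85 ± 0.925 CPM in control and 0.977 ± 0.708 CPM with esculetin, which is -2.0 on the log2 scale (edgeR adjusted p = 0.186, DESeq2 adjusted p = 0.00472). It was at -1.54 without esculetin replicate 1, the lowest library, and at -2.67 without esculetin replicate 2. Fgf21 was also called without a filter (edgeR adjusted p = 8.92e-07) and with a replicate block. Socs2, a feedback inhibitor of growth hormone signalling, was the gene of the list with the highest log2 fold change, 1.72 (edgeR adjusted p = 0.244). Control replicate 2 held 11.2 CPM against 2.40 and 3.85 CPM in the other controls, and without it Socs2 was at 2.63 (edgeR adjusted p = 0.0545). Without control replicate 1 it was at 1.35. Socs2 was called without a filter (edgeR adjusted p = 5.42e-16) and with a replicate block. Htatip2 was at -0.45 (edgeR adjusted p = 0.354). The fatty acid and oxLDL receptor Cd36 was at 0.08 (-0.38 to 0.54, edgeR adjusted p = 0.936), and between -0.16 and 0.31 when 1 library was left out.

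In the cells 14 battery genes could be tested and 12 were called, 7 higher and 5 lower, beside 57.7% of all tested genes, 28.7% higher and 29.0% lower. A further 8 of the 27 were at 0 in every library. The median log2 fold change was 0.43, beside -0.01 over all tested genes. Ptgs2, the inducible cyclooxygenase, was at 19.4, 17.1 and 18.8 CPM in control and 173, 201 and 168 CPM in esculetin cells, and rose by 3.29 on the log2 scale (edgeR adjusted p = 7.04e-09). Xdh, xanthine dehydrogenase, rose from 4.13 ± 1.29 to 25.2 ± 3.75 CPM (2.61 on the log2 scale, edgeR adjusted p = 2.15e-06). Cd36 rose from 3.86 ± 0.624 to 9.14 ± 1.39 CPM (1.23, edgeR adjusted p = 0.000246) and Nfe2l2 from 94.8 ± 2.77 to 155 ± 20.1 CPM (0.71, edgeR adjusted p = 0.000112). Slc7a5, an amino acid transporter that also carries kynurenine, fell by 1.6 on the log2 scale (edgeR adjusted p = 3.64e-06), and Pmm1, a phosphomannomutase, fell by 0.94 (edgeR adjusted p = 7.93e-05).

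Of the battery enzymes followed in both tables, Nqo1 and Aldh3a1 were at or near the floor in the cells and Ugt1a6a was low. Other enzymes of the list, such as Xdh, were expressed and called. Nqo1 had at most 3 counts in any cell library and Aldh3a1 had 0 in all 6. Ugt1a6a was at 0.742 ± 0.320 CPM in control and 0.880 ± 0.825 CPM with esculetin, overlapping, with a log2 fold change of 0.18 (-1.17 to 1.54, edgeR adjusted p = 0.816). The sign of that value turned under limma-voom and in 2 of the 6 fits that left out a replicate. Macrophage markers moved in the same libraries. Of 10 macrophage markers 7 were called higher, 0 were called lower and the rest were not called, beside 28.7% of all tested genes called higher and 29.0% lower. The median log2 fold change of the list was 0.60. The summed level of the list, in which abundant markers weigh most, was 2516 to 2684 CPM in control and 6068 to 9296 CPM in esculetin cells. The part of this shift in the battery was not tested.

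The machinery around the receptor, its chaperones, partners and coregulators, was read from 27 further genes. In the liver 26 could be tested and 0 were called, beside 0.0859% of all tested genes, with a median log2 fold change of -0.06. An unadjusted p-value under 0.05 was reached by 1 of them and by 8.37% of all tested genes. That gene was Ep300, a histone acetyltransferase and coactivator, at 16.7, 12.4 and 10.8 CPM in control and 8.07, 10.5 and 7.38 CPM in esculetin liver. The groups did not overlap, and the log2 fold change was -0.62 (edgeR adjusted p = 0.428), or -0.43 without control replicate 1, the highest library. The chaperone gene Hsp90ab1 lay close to 0, at 0.07 (-0.21 to 0.34, edgeR adjusted p = 0.912). Hif1a, which shares ARNT as a partner, was at -0.23 (-0.75 to 0.30, edgeR adjusted p = 0.828), and at 0.14 without control replicate 1. The corepressors and activators Sp1 (-0.31), Ncor1 (-0.24), Nrip1 (-0.51) and Crebbp (-0.27) did not pass either, and were at -0.16, -0.15, -0.36 and -0.17 without control replicate 1.

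In the cells 25 machinery genes could be tested and 12 were called, 6 higher and 6 lower, with a median log2 fold change of -0.04. As 57.7% of all tested genes were called, the machinery did not stand above the background of this table. The HSP90 genes that hold the receptor in the cytoplasm moved apart. Hsp90aa1, the stress-inducible form, was at 276, 198 and 203 CPM in control and 522, 550 and 583 CPM in esculetin cells and rose by 1.29 on the log2 scale (edgeR adjusted p = 7.02e-06). Hsp90ab1, the constitutive form, fell by 1.0 on the log2 scale (SE 0.11, edgeR adjusted p = 1.61e-05), without overlap between groups.

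Src, a tyrosine kinase released from the cytoplasmic receptor complex, was at 0.518, 0.645 and 0.535 CPM in control and 3.81, 5.73 and 8.36 CPM in esculetin cells. It rose by 3.39 on the log2 scale (edgeR adjusted p = 1.2e-05), the largest difference of this list. Hif1a rose from 184 ± 30.8 to 283 ± 32.2 CPM (0.62, edgeR adjusted p = 0.00126). Sp1 (-0.69), the coactivator Ncoa3 (-0.58) and the corepressor Nrip1 (-0.89) fell, with edgeR adjusted p-values of 6.41e-05, 8.17e-05 and 0.000399.

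Tryptophan breakdown makes kynurenine and related metabolites that serve as endogenous ligands of the receptor, and 13 genes of it were followed. In the liver 11 could be tested and 0 were called, although 10 of the 11 log2 fold changes were above 0 and the median was 0.24, beside -0.02 over all genes. The groups did not overlap for 5 of them, all higher with esculetin, as was the case for 6.52% of all tested genes. The markers of hepatocytes, which carry this pathway in liver, had medians of 0.17 for the general list, 0.23 for the pericentral and 0.15 for the periportal list, and the macrophage list had -0.28. The part of these levels in the tryptophan genes was not tested. Tdo2, the enzyme that opens the tryptophan ring in hepatocytes, was at 932, 741 and 723 CPM in control and 926, 883 and 904 CPM in esculetin liver, overlapping, with a log2 fold change of 0.18 (-0.11 to 0.47, edgeR adjusted p = 0.744). Acmsd (0.52, edgeR adjusted p = 0.310), Aadat (0.63, edgeR adjusted p = 0.319) and Ido2 (0.31, edgeR adjusted p = 0.520) had unadjusted p-values under 0.05. Aadat was called without a filter (edgeR adjusted p = 0.000657), and was at 0.39 without esculetin replicate 1. Kmo, Kyat3 and Afmid were at 0.25, 0.30 and 0.24. Acmsd diverts the pathway from NAD synthesis, and Aadat makes kynurenic acid.

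In the cells the same list was sparse, with 6 genes tested, 4 at 0 in every library, and 4 called, all lower, beside 57.7% of all tested genes called and 29.0% called lower. Haao, which makes the precursor of quinolinic acid, was at 6.69, 8.44 and 5.30 CPM in control and 1.17, 0.136 and 0.167 CPM in esculetin cells. It fell by 3.86 on the log2 scale (-4.97 to -2.75, edgeR adjusted p = 6.5e-05), and esculetin replicates 2 and 3 held 2 and 3 counts. Without esculetin replicate 1, which held 16, both remaining esculetin libraries were at or under the floor and the fitted value was -5.41. Qprt, which turns quinolinic acid toward NAD, fell from 24.8 ± 2.23 to 8.76 ± 1.43 CPM (-1.51, edgeR adjusted p = 7.52e-06). The kynurenine aminotransferases Kyat1 (-1.70, edgeR adjusted p = 3.34e-05) and Kyat3 (-1.16, edgeR adjusted p = 0.0312) fell as well. Kyat3 lost its call in the absence of control replicate 1 (edgeR adjusted p = 0.0813), of control replicate 3 (0.112) and of esculetin replicate 1 (0.0634). Kmo was at -1.26 (edgeR adjusted p = 0.0584) and Afmid at 0.41 (edgeR adjusted p = 0.171), and Tdo2 had at most 10 counts in any cell library. Ido1 had 0 counts in all 12 libraries.

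**Figure D5:**
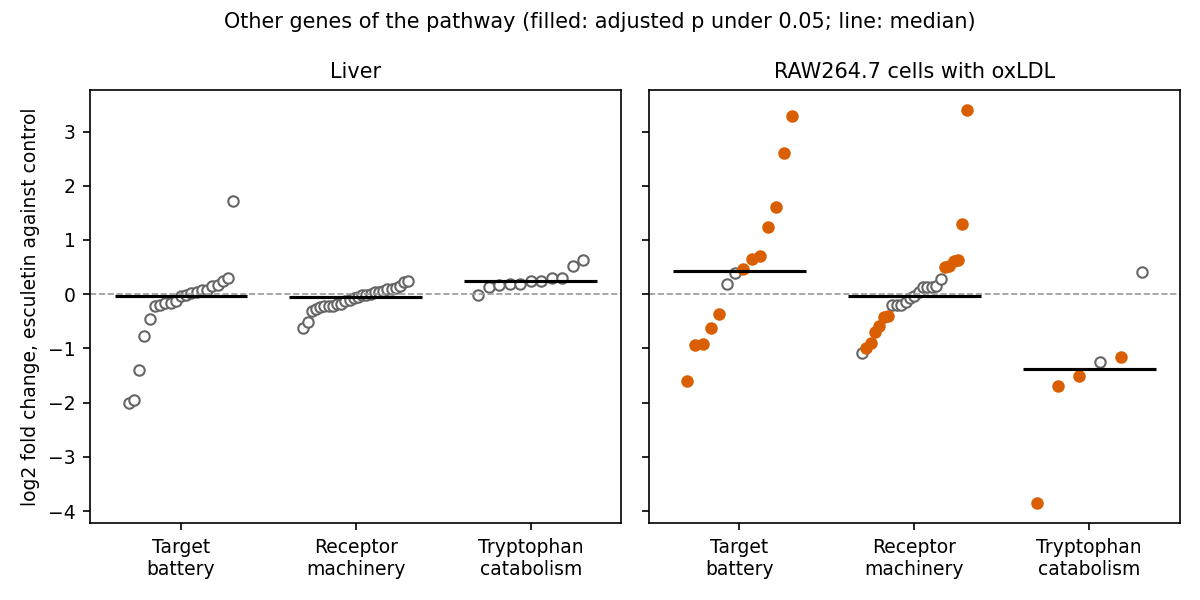
Log2 fold change of esculetin over control for each tested gene of the target battery, the receptor machinery and tryptophan breakdown, in liver (left) and cells (right), with 1 point per gene, filled where it passed an adjusted p-value of 0.05, and a line at the list's median. No point is filled in liver, where the medians are -0.03, -0.06 and 0.24, and 12, 12 and 4 are filled in cells, where the medians are 0.43, -0.04 and -1.38.

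Genes whose levels ran most closely with a member were sought among genes of at least 10 CPM on average, as Pearson's r of log2 CPM over the 6 libraries of a table. In the liver, out of 6759 genes, Cyp1a2 ran most closely with Cth (r = 0.996), Ttc39c and Dad1, and Ahr with Slc39a8 (0.995), Trim2 and Acbd3. Arnt was closest to Ncstn (0.981), Sh3bp2 and Daxx, Tiparp to Baiap2l1 (0.990), Lcmt2 and Asah1, and Cyp1a1 to Slx9 (0.993), Cd38 and Psmd14. In the cells, out of 8832 genes, Tiparp was closest to Odr4 (0.999), Lmbrd2 and Tank, Arnt to Zbtb43 (0.998), Larp1b and Ola1, and Ahrr to Snhg6 (0.977), Neurl2 and H2-DMa. With 6 libraries that also share depth and treatment, these values describe the nearest neighbours only.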

How the data were processed

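Poly(A) selection and strandedness are not given in the sources used here. Per the labels, libraries were made with the NEBNext Ultra kit, and the submitters' processing notes name HISAT2 2.2.1, featureCounts, GRCm39 and mm10; the authors deposited raw counts per gene, 1 table for liver and 1 for cells, and no column was left unused. Of 55357 identifiers, 54749 matched GENCODE release 39 (GRCm39), which gave symbols, lengths and coordinates. Each table was fitted alone with edgeR 4.0.16 (R 4.3.3; filterByExpr, TMM, quasi-likelihood test, two-sided, Benjamini-Hochberg over all tested genes, called at an adjusted p-value under 0.05), and the difference of effects in a 4-group model of 12 libraries. CPM used TMM-scaled totals, and SE was computed from the log2 fold change and the F statistic. An exact permutation test of 3 against 3 cannot go below p = 0.1. Alternatives were RLE, upper quartile or library-size scaling, no filter, a filter of 1 CPM in 3 libraries, DESeq2 1.42.0, limma-voom 3.58.1, the study's criterion (limma-voom unadjusted p-value under 0.05 and fold over 1.5), a replicate block and leaving out each replicate. The fits were run on simulated counts with fold changes larger than those of the tested members in either table. Power for smaller changes was not measured. Members and lists were chosen with earlier results of these data known. The lists were written by hand from general knowledge, and the genes named are all members, up to 6 genes with the smallest p per list and table, and Nqo1, Aldh3a1, Ugt1a6a, Cd36, Hsp90ab1, Hif1a and Tdo2 throughout, with 1 further gene of the rule not reported here.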

Additional observations from a re-analysis of the deposited data

Results flagged for a closer look

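The effect of esculetin on Tiparp differed between the RAW264.7 cells and the liver, by a test of the difference itself. The log2 fold change in the cells minus that in the liver was 1.5 (edgeR adjusted p = 0.00312), from a rise of 0.94 in the cells, seen in 3 of 3 esculetin libraries, and a value of -0.60 in the liver that did not pass. The liver value rests on 16 to 57 counts per library, against 2353 to 4461 in the cells.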

How the results depend on the processing

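The liver kept 0 called members, and the cells minus liver difference kept 1, under every alternative run. In the cells, 2 members were called under library-size scaling, against 1 in the other alternatives. The liver target battery, 0 in the fit reported, gave 5 calls without a filter, 2 with DESeq2, 4 with a replicate block, 5 by the study's criterion and 0 to 1 when a replicate was left out, the 1 being Nfe2l2 without control replicate 3. The study's criterion gave 1 call each for machinery and tryptophan genes in the liver, and no filter gave 1 tryptophan gene, Aadat. How many of all genes met the study's criterion is not given here. In the cells the battery ranged from 10 to 12 calls, the machinery from 8 to 16 and the tryptophan genes from 3 to 5. Signs turned in the liver when 1 library was left out, for Ahr (log2 fold changes from -0.29 to 0.19, above 0 only without control replicate 1), Arnt (-0.17 to 0.046), Nqo1 (-0.15 to 0.051), Hif1a (-0.46 to 0.14, above 0 only without control replicate 1) and Cd36 (-0.16 to 0.31), and Cd36 was also at -0.0018 with library size only. In the cells Ugt1a6a ran from -0.89 to 0.60 when 1 library was left out, and was at -0.12 with limma-voom. The causes were not tested. Of 391 values of 28 named genes in the liver, 367 kept sign and side of the threshold, and 325 of 334 values of 24 genes in the cells. Libraries of the same number correlated at 0.140, -0.00529 and 0.103 in the liver and 0.165, -0.0298 and 0.0796 in the cells after group means were removed, so the numbers were not taken as pairs. Each group had 3 libraries, of 13752842 to 20346460 counts. Ahrr and Cyp1b1 in the liver and Ahr and the CYP1 genes in the cells had too few counts to be tested.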
